A study of Mus musculus with 2 samples.

Results

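Of the 138523 ATAC-seq peaks that the control and the Brg1 cKO library held on chromosomes 1 to 19 and X, 10274 lay in gene deserts: 5597 of 77421 control peaks and 4677 of 61102 cKO peaks. A peak was taken as a desert peak when its summit lay outside every protein-coding RefSeq gene of mm10 and more than 100000 bp from the nearest end of one. No measured value of a peak entered this choice, only its position. The nearest peaks on either side of the threshold were 100.1 kb from a gene inside it and, outside it, 100 kb (control) or 99.9 kb (cKO).

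ATAC-seq uses a transposase that inserts sequencing adapters into open DNA. Both libraries came from tdTomato cells of the Wnt4 lineage, purified by FACS from the kidneys of mouse embryos at E18.5, close to birth, with 50000 cells in a reaction. The control library has the genotype WT control and the other Brg1cKO/cKO; Brg1, encoded by Smarca4, is an ATPase of the BAF (SWI/SNF) chromatin remodelling complex, and Wnt4 is a ligand with which kidney mesenchyme becomes nephron epithelium. The labels give no number of animals, no sex of the embryos and no further allele, and the cell type entry of the control library reads only "control", so that it too holds Wnt4-lineage cells rests on its title and on the series' design. Each genotype had 1 library. The spread between replicates is therefore unknown, the genotypes were not tested against each other, and every interval below covers counting error only and describes these 2 lists.

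Gene deserts are long stretches without protein-coding genes. Many of them hold enhancers, which act on a promoter over a long distance and are often active in a single tissue or stage, and genes that direct development are known to lie beside such stretches. Other deserts, often next to neuronal adhesion genes, hold few known regulatory elements. A desert can also hold long noncoding RNA (lncRNA) genes, whose own start sites can be open.

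The sequences below are the start windows of lncRNA genes inside the deserts that the results turn on: 250 bases before to 50 bases after the annotated start, read on the gene's strand, from RefSeq on GRCm38.p6. They are shown because an annotated start is the only desert sequence at hand that lies under a called peak. Capitals mark each CpG dinucleotide. Firre (chrX:50635272-50635571, minus strand) lies in the desert with the largest excess of cKO peaks.
Firre: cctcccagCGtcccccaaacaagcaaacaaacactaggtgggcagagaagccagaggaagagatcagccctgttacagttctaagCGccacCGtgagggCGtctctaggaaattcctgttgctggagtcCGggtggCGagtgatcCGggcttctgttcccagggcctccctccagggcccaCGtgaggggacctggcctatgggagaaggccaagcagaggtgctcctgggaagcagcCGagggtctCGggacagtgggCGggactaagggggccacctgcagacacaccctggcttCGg
1700011C11Rik (chr7:71960925-71961224, plus strand) starts under the most significant control peak of the desert between Gm44812 and Mctp2, which held most cKO peaks.
1700011C11Rik: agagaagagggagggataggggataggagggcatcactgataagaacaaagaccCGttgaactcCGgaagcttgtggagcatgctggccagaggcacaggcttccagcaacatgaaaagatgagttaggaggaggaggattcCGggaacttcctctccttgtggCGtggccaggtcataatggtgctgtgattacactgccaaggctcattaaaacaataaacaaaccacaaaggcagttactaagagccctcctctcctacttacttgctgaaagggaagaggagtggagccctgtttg
Gm32123 (chr14:25109011-25109310, plus strand) starts in the desert between Rps24 and Zmiz1.
Gm32123: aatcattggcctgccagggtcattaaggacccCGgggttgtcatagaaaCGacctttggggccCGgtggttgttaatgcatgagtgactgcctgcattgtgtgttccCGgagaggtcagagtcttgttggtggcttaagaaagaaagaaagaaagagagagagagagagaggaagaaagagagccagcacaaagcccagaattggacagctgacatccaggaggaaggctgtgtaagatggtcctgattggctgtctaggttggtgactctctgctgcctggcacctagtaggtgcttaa
E130006D01Rik (chr5:111761679-111761978, minus strand) starts in the desert between Mn1 and Cryba4.
E130006D01Rik: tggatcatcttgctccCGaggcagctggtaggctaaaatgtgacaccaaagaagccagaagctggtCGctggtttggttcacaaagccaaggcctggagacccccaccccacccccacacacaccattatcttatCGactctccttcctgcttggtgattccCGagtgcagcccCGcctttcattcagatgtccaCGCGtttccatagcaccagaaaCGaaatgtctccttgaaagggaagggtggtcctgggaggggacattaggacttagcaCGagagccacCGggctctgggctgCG
Gm31455 (chr6:50822203-50822502, minus strand) starts in the desert between Npvf and Gm38821.
Gm31455: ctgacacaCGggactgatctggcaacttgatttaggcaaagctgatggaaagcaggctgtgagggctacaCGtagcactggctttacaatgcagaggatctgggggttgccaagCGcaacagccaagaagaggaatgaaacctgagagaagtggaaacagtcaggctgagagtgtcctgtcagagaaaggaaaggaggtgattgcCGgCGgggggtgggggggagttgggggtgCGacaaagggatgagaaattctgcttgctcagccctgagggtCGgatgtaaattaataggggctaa
Gm35634 (chr4:131408889-131409188, plus strand) starts in the desert between Matn1 and Ptpru, under a peak of the control list alone.
Gm35634: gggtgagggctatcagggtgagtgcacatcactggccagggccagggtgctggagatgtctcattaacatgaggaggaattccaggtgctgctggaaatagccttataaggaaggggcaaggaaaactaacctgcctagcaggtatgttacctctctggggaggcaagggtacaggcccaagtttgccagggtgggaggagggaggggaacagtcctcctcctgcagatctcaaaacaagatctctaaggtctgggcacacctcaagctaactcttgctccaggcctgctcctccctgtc

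These windows differed in base composition. Firre had 12 CpG and 62.7% G+C, E130006D01Rik 11 CpG and 56.0%, Gm31455 7 CpG and 53.3%. The window of 1700011C11Rik had 4 CpG and 50.3% G+C and that of Gm32123 had 4 and 51.0%. The one of Gm35634, called in the control list alone with a -log10 p of 4.50, had 0 CpG. It is no typical case: the window of Gm40604 (between Nmbr and Cited2, 5.15), also called in the control list alone, had 5 CpG. That of 6330420H09Rik (desert between Mki67 and Mgmt, 7.75) had 4. There the control peak (chr7:135853095-135853871) reaches only the first bases of the window (chr7:135853869-135854168) and not the start. Of desert windows that a peak overlapped by at least 1 bp, 55 were called in the control list alone and 183 in both lists. The median number of CpG was 5 in either set. Among the others, the -log10 p of the covering peak at Firre was 9.25 for control and 8.60 for cKO cells, 8.57 and 7.76 at 1700011C11Rik, and 7.93 and 7.45 at Gm32123. At E130006D01Rik it was 6.26 and 5.66, and at Gm31455 6.07 and 6.64. A -log10 p depends on the depth and background of its own library, so these pairs show that both lists called the start and not a change in accessibility.

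Desert peaks made up 7.23% (95% interval 7.05 to 7.41%) of the control and 7.65% (7.44 to 7.87%) of the cKO list. The cKO list is shorter. When only the 61102 most significant control peaks were kept, 3878 of them, or 6.35% (6.15 to 6.54%), lay in deserts, fewer than the 4677 of the cKO list. This shortening drops weak peaks from the control list alone. Desert peaks are more frequent among weak peaks, as given below, so the control share had to fall. The comparison therefore cannot tell which library holds more of its peaks in deserts. The deserts between a pair of genes, 1537 in number, span 738 Mb and 28.4% of the sequence between the first and last protein-coding genes, with a median length of 221 kb (quartiles 76.7 and 588) and a longest of 4342 kb. They held 7.54 control and 6.28 cKO peaks per Mb, against 38.6 and 30.3 in the remaining sequence. The next peak of the same list was a median of 9.86 kb (control) and 11.8 kb (cKO) away from a desert peak, and 3.83 and 4.95 kb from other peaks.

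Desert peaks were narrower and less significant than the other peaks of their list. Their median width was 689 bp against 858 bp in the control and 708 against 926 bp in the cKO library. Their median -log10 p, as the authors' peak caller gave it, was 5.18 against 5.77 and 5.12 against 5.77. The median distance from a gene was 189 kb (quartiles 135 and 300) for control and 192 kb (137 and 308) for cKO peaks, and the most remote peak of both lists was 2188 kb away. When each list was cut into 10 equal classes by -log10 p, desert peaks were 10.3% of the weakest control class and 0.426% of the strongest, and 11.2% and 0.458% in the cKO list. The 4 weakest classes held 55.6% of control and 58.4% of cKO desert peaks.

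A peak was called shared when it overlapped a peak of the other list by at least 1 bp. Of all control peaks 74.1% were shared and 25.9% were not; of all cKO peaks 94.1% were shared and 5.90% were not. In deserts, 3885 control peaks were shared, 69.4% (68.2 to 70.6%), against 74.5% of the 71824 other control peaks, and 1712 were called in the control list alone. Of the cKO desert peaks 3891 were shared, 83.2% (82.1 to 84.3%), against 95% of the 56425 other cKO peaks, and 786 were called in the cKO list alone. Deserts thus held 21.8% (20.5 to 23.2%) of the 3606 cKO peaks without a control counterpart and 8.55% (8.16 to 8.94%) of the 20034 control peaks without a cKO counterpart, while they held 6.77% of the shared peaks in either list. When the control list was shortened to the number of cKO peaks, 79.0% of control and 65.9% of cKO desert peaks were shared. A shared site counts in both lists, so the list with fewer desert peaks has the higher share. The shortening left 3878 control against 4677 cKO desert peaks. The order of these shares thus follows from the counts and cannot tell which library's desert peaks recur more often. The depth of the libraries is unknown, so an uncalled site need not be closed, and fewer cells with an open site cannot be told apart from less cutting per cell.

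The strength of a peak went with sharing, so desert and other peaks were set side by side within strength classes. Of weak cKO peaks, those in deserts were shared less often: 58.3% (54.5 to 62.1%) of 684 in the weakest class against 77.7% of the other peaks. The next classes gave 66.9 against 84.3%, 78.7 against 90.7% and 87.5 against 96.4%. The intervals did not overlap in the 6 weakest classes. From class 7 upwards at least 98.6% of the cKO desert peaks were shared, and only 28 desert peaks stood in the strongest class. Averaged over the classes, with the number of desert peaks as weight, the difference was -9.08 percentage points (-10.1 to -8.07), with a Mantel-Haenszel odds ratio of 0.363 (0.330 to 0.399), in place of -11.8 points without classes. The difference was below 0 on each of the 20 chromosomes, between -21.7 and -5.55 points, and in each of the 18 other settings that were run, between -16.0 and -6.05.

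**Figure D1:**
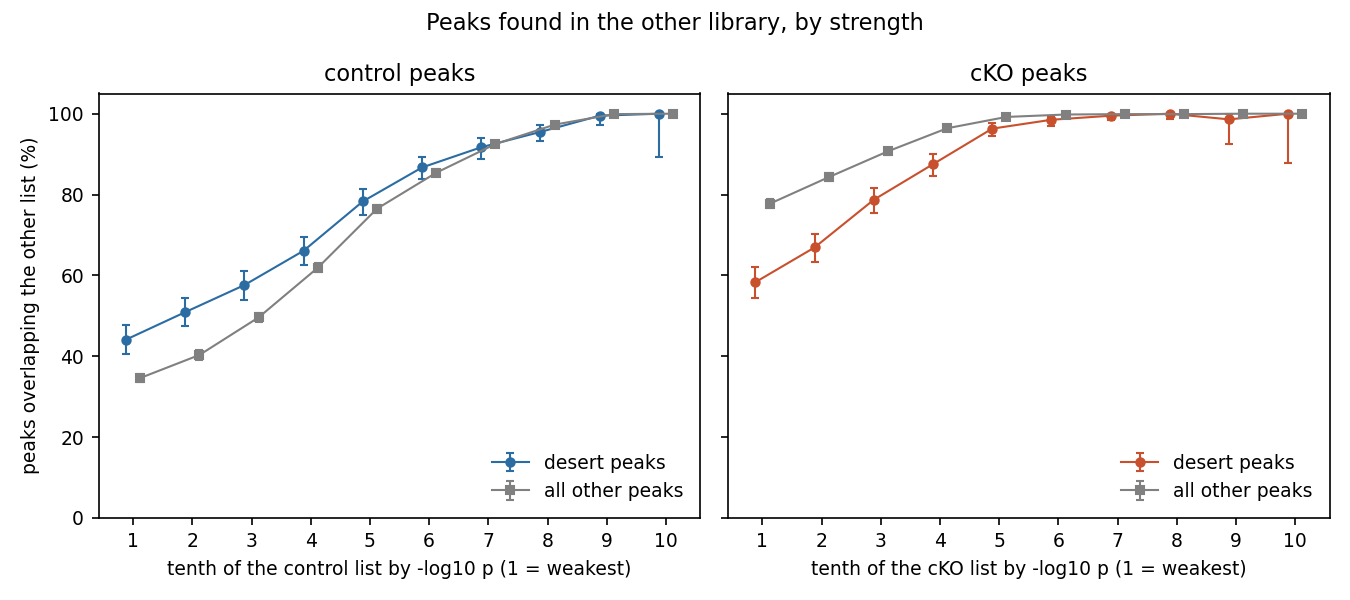
Share of peaks (%, y axis) that overlap a peak of the other list, by strength class of their own list (x axis, from 1, the weakest, to 10), for control peaks (left) and cKO peaks (right); coloured circles are desert peaks, grey squares all other peaks, and bars are exact 95% binomial intervals. In the weakest class the desert peaks stand at 44.1% against 34.6% in the control list and at 58.3% against 77.7% in the cKO list, and both curves meet near 100% on the right.

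Weak control peaks showed the opposite order. Both directions are read from the same overlaps, so they are not independent results. In the weakest class 44.1% (40.6 to 47.6%) of 796 desert peaks were shared, against 34.6% of the other peaks. The following classes gave 50.9 against 40.3%, 57.6 against 49.6% and 66.1 against 61.9%, and the intervals were apart in the 3 weakest classes only. Over all classes the difference was 4.71 points (3.55 to 5.87), with an odds ratio of 1.30 (1.22 to 1.39), whereas without classes it was -5.08 points. This direction did not hold in every setting: among the more significant 50% of each list the difference was -0.380 points (-2.46 to 1.70). For lists of equal length with classes by peak area, a setting added after the data were seen, it was 0.797 points (-0.405 to 2.0). Of the 20 chromosomes, 3 gave a difference below 0. Most of the other peaks in the 4 weakest classes, 17620, lay inside genes, and 43.8% (43.0 to 44.5%) of these were shared. Outside genes the shares were 54.2% within 1 kb of a gene end, 53.6% at 1 to 10 kb, 50.6% at 10 to 50 kb and 49.8% at 50 to 100 kb. In deserts 53.9% were shared at 100 to 200 kb. Weak desert peaks thus stood above peaks inside genes, but not above all peaks nearer to genes.

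The unshared desert peaks were mostly weak. The 4 weakest classes held 1420 of the 1712 control peaks (82.9%) and 754 of the 786 cKO peaks (95.9%) without a counterpart. Their median width was 551 bp in the control and 556 bp in the cKO list, against 774 and 756 bp for the shared desert peaks. The nearest peak of the other list was a median of 17.4 kb away for control and 18.6 kb for cKO desert peaks, and 6.31 and 5.12 kb for unshared peaks outside deserts. Within 1 kb of a peak of the other list lay 6.89% of the unshared control and 6.62% of the unshared cKO desert peaks. Outside deserts it was 12.3% and 17.4% of the unshared peaks. Few unshared desert peaks thus stood just beside a peak of the other list. Peaks are sparser in deserts, as given above, and the part of this in these distances was not tested.

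Among peaks of the 4 weakest classes, sharing of cKO peaks fell with distance from genes. Within 1 kb of a gene end 90.3% of 495 cKO peaks were shared, at 50 to 100 kb 80.8% of 1560, and at 100 to 200 kb 76.5% (74.2 to 78.7%) of 1398. At 200 to 500 kb the share was 69.4% (66.6 to 72.1%), at 500 to 1000 kb 63.0% (55.8 to 69.9%), and beyond 1000 kb 54.1% (36.9 to 70.5%) of 37 peaks. The change thus ran across the threshold rather than starting at it, and the last steps lie within overlapping intervals. Weak control peaks had no such course, with 54.2%, 49.8%, 53.9%, 54.7%, 54.9% and 63.3% in the same ranges, the last over 30 peaks. Median -log10 p in these ranges was between 4.66 and 4.77 in both lists.

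**Figure D2:**
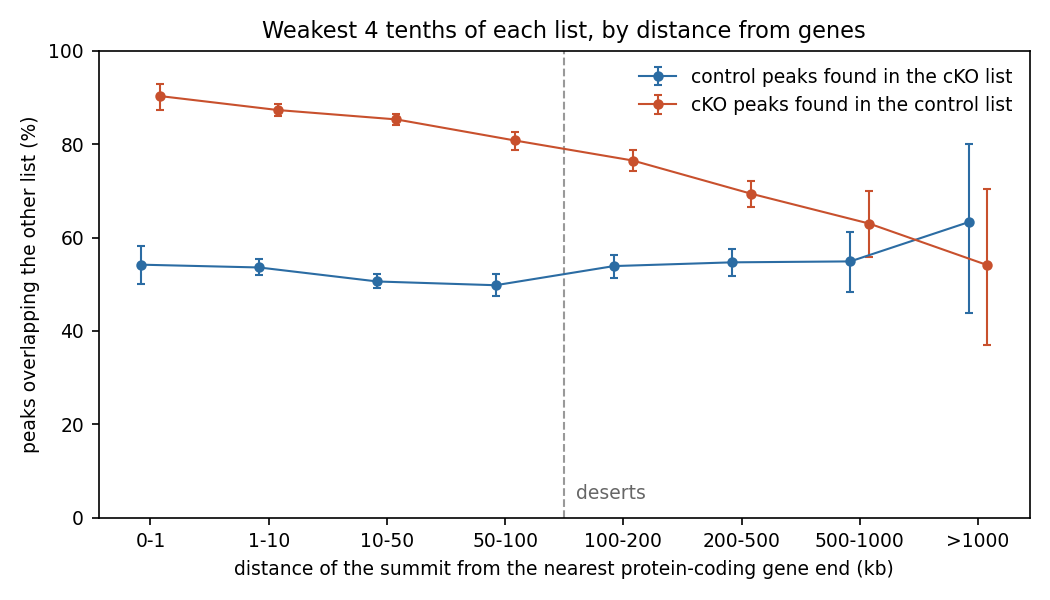
Share (%, y axis) of the peaks of the 4 weakest classes outside genes that overlap a peak of the other list, by distance of the summit from the nearest protein-coding gene end (x axis, kb; deserts right of the dashed line), with exact 95% binomial intervals. The cKO curve goes from 90.3% within 1 kb to 54.1% beyond 1000 kb, while the control curve stays between 49.8% and 63.3%.

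Peaks were spread over many deserts. Counting chromosome ends, 952 deserts held a control and 900 a cKO peak; 853 held both, 99 only control peaks (138 in all, at most 5 in a desert) and 47 only cKO peaks (52, at most 3), and 545 of the deserts between genes held none. A desert with peaks held a median of 3 in either list. At the upper end, 49 deserts with at least 20 control peaks held 1399 of them, and the 12 with most held 506, or 9.04%. In these 12 deserts 365 control peaks were shared, 72.1% (68.0 to 76.0%), and 361 of 403 cKO peaks, 89.6% (86.2 to 92.4%). The share of cKO peaks that were shared was 77.7% (72.1 to 82.6%) where they stood alone in a desert and 85.1% (82.4 to 87.5%) where at least 20 stood together. The control list gave 66.8% (60.6 to 72.6%) and 72.4% (70.0 to 74.7%). Strength moved with crowding: 64.6% of the lone and 51.6% of the crowded cKO peaks, and 56.1 and 51.5% of the control peaks, were in the 4 weakest classes, and its part in these shares was not tested. The unshared cKO peaks were scattered over 425 deserts, 252 of which held exactly 1.

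**Figure D3:**
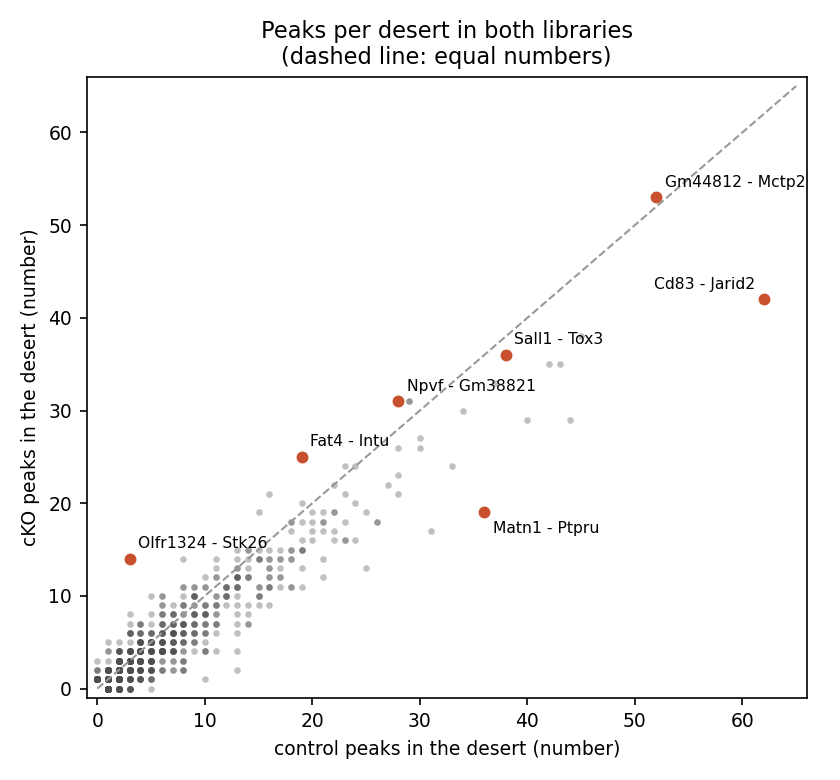
Number of cKO peaks (y axis) against number of control peaks (x axis) in each desert with a peak; each point is a desert, the dashed line marks equal numbers, and named deserts are in orange. Of the 12 deserts with most control peaks 11 lie below the line, Cd83 - Jarid2 with 62 control and 42 cKO peaks being the farthest right, and Olfr1324 - Stk26 stands above it with 3 and 14.

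The desert with most control peaks lay between Cd83, an immune surface protein gene, and Jarid2, which encodes an accessory subunit of Polycomb repressive complex 2 (chr13:43903134-44630773, 728 kb). It held 62 control peaks, of which 38 were shared, and 42 cKO peaks, of which 39 were shared. Its 24 control-only peaks were the most of any desert and had a -log10 p of 3.87 to 6.50, with a median of 4.82. The share of 61.3% (48.1 to 73.4%) had an interval that took in the 69.4% of all desert peaks. Most cKO peaks, 53, and 52 control peaks stood between the provisional gene Gm44812 and Mctp2, which encodes a membrane protein with C2 domains (chr7:70684962-71977826, 1293 kb), with 43 shared in each list. The first gene with a settled name behind Gm44812 is Nr2f2, the COUP-TFII nuclear receptor of mesenchyme and veins. Its control share of 82.7% (69.7 to 91.8%) was the 1 of the first 12 whose interval lay above the 69.4% of all desert peaks, and none lay below it.

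Among the next deserts by number of control peaks, between Rps24, a ribosomal protein gene, and Zmiz1, a transcriptional coactivator gene (chr14:24596961-25357874), 34 of 45 control and 33 of 38 cKO peaks were shared, and the window of Gm32123 printed above lies there. Beside Sall1, a zinc finger gene that nephron progenitors need, up to Tox3 (chr8:89144163-90147109), the counts were 32 of 38 and 32 of 36. The desert between Gm5148 and Ankrd50 (chr3:37824361-38349258) gave 33 of 42 and 33 of 35, and behind Gm5148 lies Spry1, an antagonist of receptor tyrosine kinase signalling that limits budding of the ureter. The shortest of the 12 was the 200 kb beside Foxl1, a forkhead gene of mesenchyme (chr8:121230645-121430775), with 31 of 37 control and 31 of 33 cKO peaks shared. Its 185 control peaks per Mb were the densest of all deserts of at least 100000 bp, and its median strength class was 7, where most of the 12 had 4 or 5.

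Between Mki67, whose protein marks dividing cells, and Mgmt, a DNA repair gene (chr7:135816451-136794462), 33 of 43 control and 33 of 35 cKO peaks were shared. Between Thap1 and Zfp703, a gene for a transcriptional repressor (chr8:26264152-26877335), the counts were 29 of 40 and 27 of 29, and between Mn1, a transcriptional coregulator gene, and the lens crystallin gene Cryba4 (chr5:111557031-112146491) 28 of 34 and 27 of 30. Cited2, a modulator of CBP/p300, and Nmbr, the neuromedin B receptor gene, border a desert of 2752 kb (chr10:14871459-17623227) with 20 of 33 control and 20 of 24 cKO peaks shared. Only 4 of its 33 control peaks lay nearer to Nmbr than to Cited2. Peaks were thus not spread evenly along this desert.

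**Figure D4:**
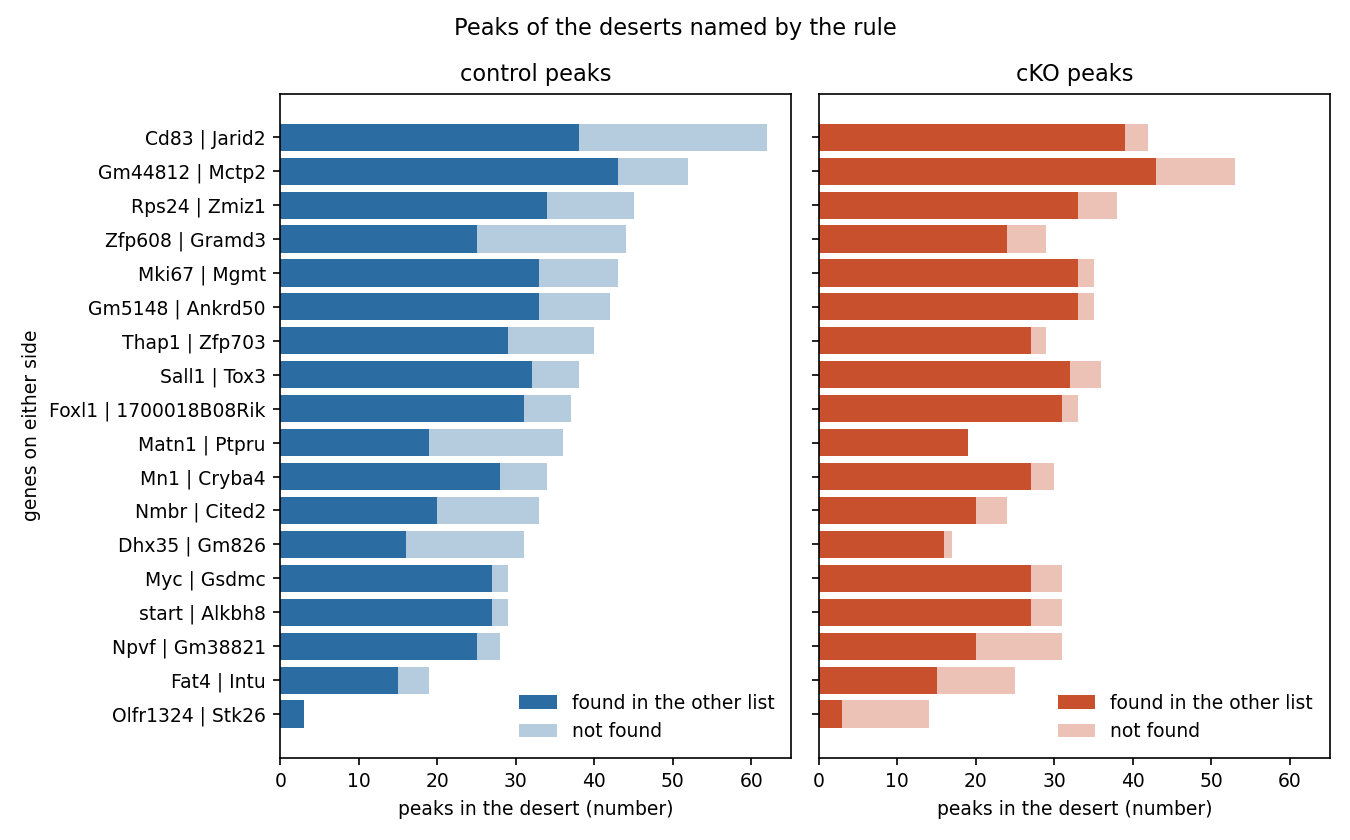
Number of control peaks (left) and cKO peaks (right) in the 18 deserts named by rule, each labelled by the genes on either side; the dark part of a bar is shared with the other list and the pale part is not. Pale parts are long in the control list at Cd83 and Jarid2 (24), Zfp608 and Gramd3 (19) and Matn1 and Ptpru (17), and in the cKO list at Olfr1324 and Stk26 (11) and Npvf and Gm38821 (11).

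Control-only peaks were most numerous, after Cd83 and Jarid2, beside Zfp608 (19), Matn1 (17) and Dhx35 (15). Between Zfp608, a zinc finger gene, and Gramd3 (chr18:55092592-56287484), 25 of 44 control and 24 of 29 cKO peaks were shared. Between Matn1, a cartilage matrix gene, and Ptpru, a receptor tyrosine phosphatase gene (chr4:131055477-131668456), 19 of 36 control peaks were shared, 52.8% (35.5 to 69.6%), as were all 19 cKO peaks. Its control-only peaks had a -log10 p of 3.87 to 6.36, and that over the start of Gm35634, printed above, was among them. The desert between Dhx35 and Gm826 (chr2:158958221-160211392) had 16 of 31 control and 16 of 17 cKO peaks shared. Its 15 control-only peaks reached a -log10 p of 7.15, with a median of 5.48. The intervals of the control shares beside Zfp608 (41.0 to 71.7%), Matn1 and Dhx35 (33.1 to 69.8%) each took in the 69.4% of all desert peaks.

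Some deserts held more cKO than control peaks. Of the deserts with peaks, 198 had more cKO-only than control-only peaks and 492 the reverse. Between Npvf, a neuropeptide gene, and Gm38821 (chr6:50754446-51122956), with Nfe2l3 behind it, 25 of 28 control but 20 of 31 cKO peaks were shared, 64.5% (45.4 to 80.8%). The 11 cKO-only peaks had a -log10 p of 4.11 to 5.42. Between Fat4, an atypical cadherin gene that acts in the kidney stroma, and Intu, a planar polarity and cilium gene (chr3:39111993-40431290), 15 of 19 control and 15 of 25 cKO peaks were shared, and the 10 others ranged from 3.94 to 5.36. The desert between Gm44812 and Mctp2 also had 10 cKO-only peaks, of -log10 p 4.18 to 5.59. Beside Myc, the growth-regulating transcription factor gene, up to Gsdmc (chr15:62090362-63675970), both lists had 27 shared peaks, of 29 control and 31 cKO peaks. The lncRNA gene Pvt1, which reaches into this desert, had 11 peaks in each list, and every one was shared.

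The desert between the olfactory receptor gene Olfr1324 and the kinase gene Stk26 on X (chrX:50526495-50741173, 215 kb) had the fewest control peaks of the named deserts. It held 3 control peaks, all shared, and 14 cKO peaks, of which 11 were not. The 11 lay within 51.2 kb (chrX:50572172-50623419), all inside the lncRNA gene Firre (chrX:50563120-50635321), with a -log10 p of 4.52 to 6.32 and no control peak among them. Firre is known for long-range contacts on the inactive X chromosome. Its start, printed above, was under a peak in both lists. Without this desert the share of cKO desert peaks that were shared was 83.4% and the difference within classes -8.89 points, and on the autosomes alone they were 83.4% and -8.90 points.

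Other loci that are known to differ between the sexes were read beside Firre and were chosen after its values were seen. The lncRNA gene 4933407K13Rik on X, outside the deserts, had 1 control and 6 cKO peaks, 5 of them in the cKO list alone. Xist, the RNA that silences the inactive X, had 1 control peak of 201 bp away from its ends (-log10 p 4.78) and 2 cKO peaks (5.02 and 5.76), with a call at an end. On Y, the -log10 p at an end of Eif2s3y was 8.23 for the control and 6.29 for the cKO library, that of Ddx3y 8.26 and 6.24, and that of Uty 8.59 and 6.68. Kdm5d had a control peak (5.52) and no cKO peak. As given above, a -log10 p depends on the depth and background of its own library. These pairs therefore do not measure a difference in signal between the libraries. The lists held 29 and 30 peaks on Y. The part of a different mix of male and female embryos in the counts at Firre was not tested.

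**Figure D5:**
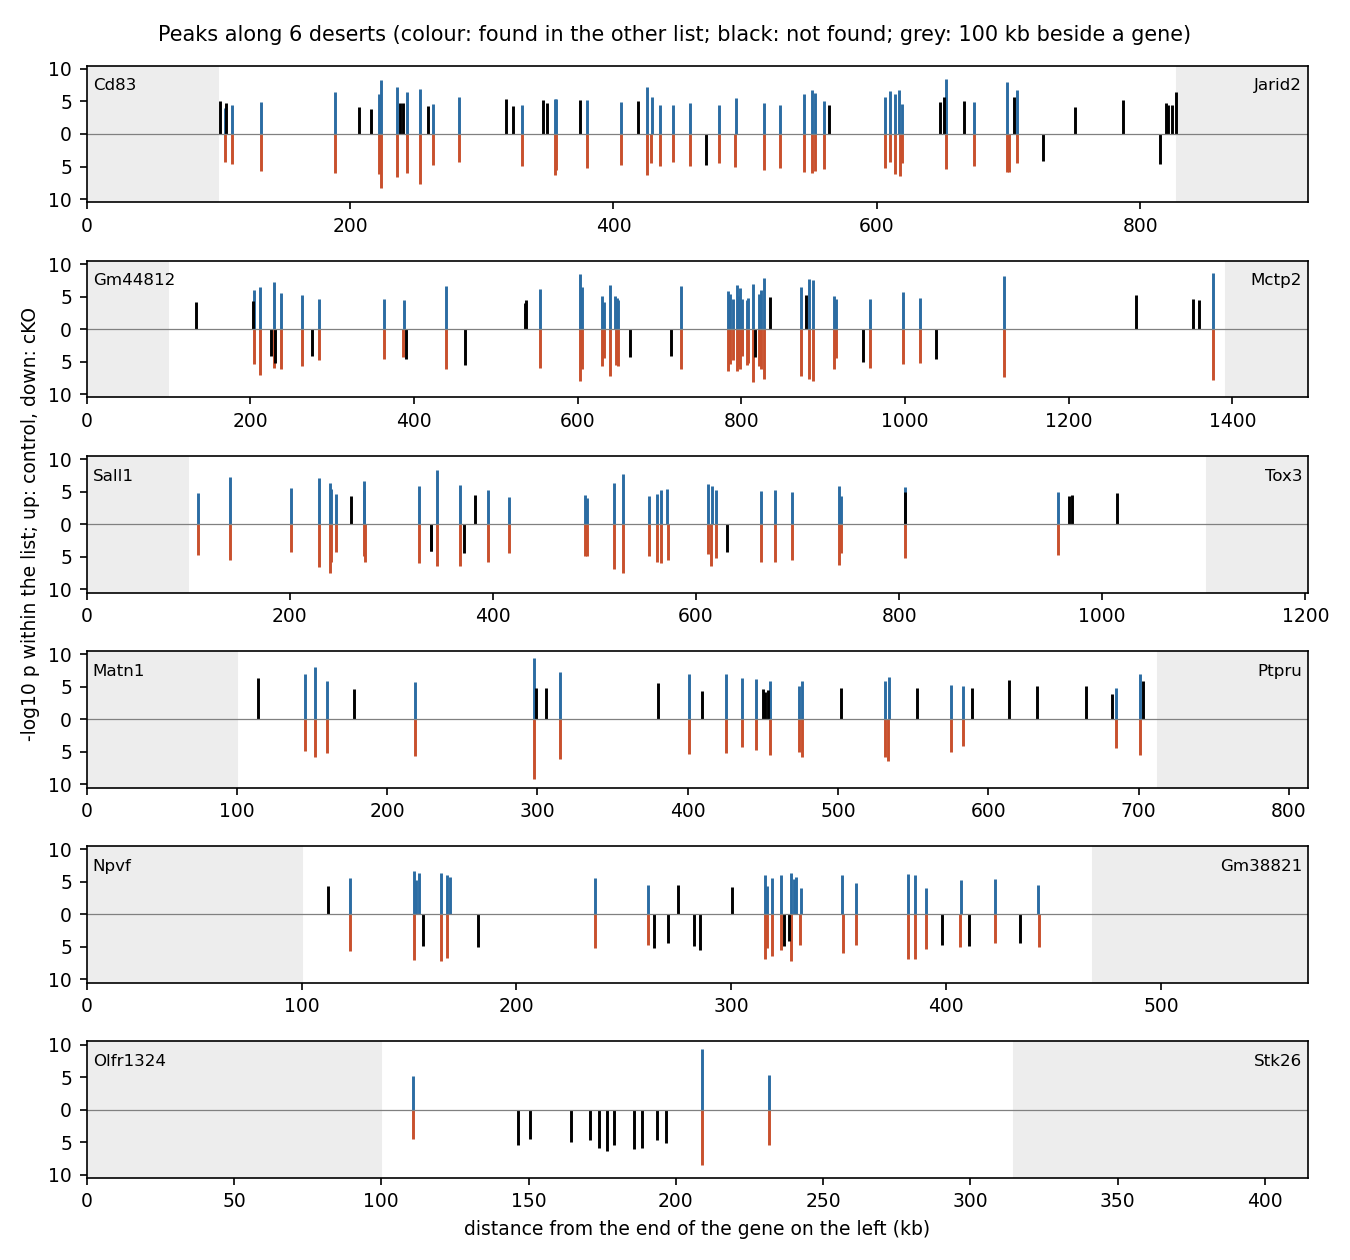
Peaks along 6 deserts, by distance from the end of the gene on the left (x axis, kb), with their -log10 p within their own list (y axis; control upwards, cKO downwards); coloured lines are shared peaks, black lines are not, and grey bands are the 100 kb beside a gene, which the deserts leave out. The black cKO lines at Olfr1324 - Stk26 stand in a row of 11, whereas the 24 black control lines at Cd83 - Jarid2 are scattered over the desert.

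The most significant desert peaks were shared with nearly the same edges. The leading peak of both lists lay 1035 kb from Lrrc4c, a synaptic adhesion gene (chr2:98666193-98667377), with a -log10 p of 20.4 for control and 22 for cKO cells. Next came a peak of 320 bp near Rab10, a trafficking GTPase gene (chr12:3109826-3110145), with 20.3 and 21.4. Peaks near Gm2244 (20.1 and 20.1) and Esp38 (20.1 and 19.2) came next in the control list, the latter 5923 bp wide in both lists, while in the cKO list another peak near Lrrc4c (chr2:98662187-98663135, 20.3) stood before them. Of the 33 control desert peaks in the strongest class, 12 stood beside a provisional gene or a chromosome end, as did 11 of 28 in the cKO list. The same share over all desert peaks was not taken, so these counts cannot be called high or low. The peaks before Alkbh8, at the start of chromosome 9, numbered 29 in the control list and 31 in the cKO list, with 27 shared in each. No list of regions prone to artefacts was applied here, and the share of such regions among these peaks was not tested.

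The most significant unshared desert peaks were weaker than these. In the control list they lay 121 kb from Tmx1 (chr12:70588084-70588917, -log10 p 7.99), 174 kb from Cdyl (chr13:35485921-35486534, 7.88), 334 kb from Gnai1 (7.69) and 326 kb from Zfp637 (7.51); the last stands in the desert beside Cxcl12. In the cKO list the leading one, 222 bp wide, was that before Alkbh8 (chr9:3014298-3014519, 8.28). It was followed by peaks 471 kb from Tfec (6.43), 177 kb from Olfr1324 (6.32, inside Firre) and 149 kb from Fer (6.07). Tfec encodes a transcription factor and Fer a tyrosine kinase.

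Developmental genes bordered deserts that held more peaks. Among 5 lists of transcription factor and signalling genes with 437 genes in the table, 231 flanked a desert. Their 279 deserts held a median of 4 control and 3 cKO peaks, against 1 and 1 over all 1537 deserts, and 12.2 control peaks per Mb against 6.47 in the 1258 deserts without such a gene. They were also longer, with a median of 338 kb against 204 kb. A gene of these lists stood beside 15 of the 49 deserts with at least 20 control peaks (30.6%), 3 of the 12 with most and 279 of all 1537 (18.2%). With provisional genes passed over, so that genes such as Nr2f2 and Spry1 become neighbours of their deserts, the counts were 18 of 49 (36.7%), 5 of 12 (41.7%) and 298 (19.4%). The share of their peaks that were shared was close to that of all deserts: 70.3% (68.0 to 72.5%) against 69.2% of control and 84.8% (82.8 to 86.7%) against 83.2% of cKO peaks.

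Nephron and podocyte transcription factors, 26 of 50 of which flanked a desert, had 31 deserts with a median of 6 control peaks and 14.5 per Mb. After Sall1, the desert of Irx1 (10 of 19 control and 10 of 11 cKO peaks shared) and that between Irx3 and Irx5 (10 of 16 and 12 of 14) held most; Iroquois genes pattern nephron segments. Stromal and mesenchymal factors, 45 of 66, had 58 deserts with a median of 5. Foxl1 led them, and Zeb2, a repressor of epithelial genes, had 19 of 28 and 19 of 26 peaks shared. SOX and KLF factors, 15 of 35, had 23 deserts with a median of 6 and, at 17.2 per Mb, the densest of the 6 lists; Sox4 (25 of 30 and 23 of 27), Klf14 (10 of 18 and 10 of 11) and Sox11 (11 of 17 and 12 of 13) led. Transcription factors of other organs, 56 of 121, had 69 deserts with a median of 2, led by those of Zfp703, Myc and Pou3f1 (14 of 21 and 14 of 14).

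Among ligands, receptors and modulators of signalling, 89 of 165 flanked 106 deserts with a median of 3 control peaks and 9.87 per Mb. Most peaks lay beside Plxna2, a semaphorin co-receptor gene (15 of 26 control and 14 of 18 cKO peaks shared), Efnb2, which encodes an ephrin ligand (18 of 23 and 18 of 18), and Cxcl12, a chemokine gene (16 of 23 and 15 of 16). Jag1, a Notch ligand gene of the nephron (13 of 18 and 13 of 14), and Fgf9, a growth factor gene for nephron progenitors (9 of 17 and 9 of 11), came later and were added after their values were seen. Cell adhesion and synapse genes, 71 of 85 of which flanked 106 deserts, gave the contrast: their deserts were the longest, with a median of 782 kb, and held a median of 1 peak and 1.85 control peaks per Mb. Cdh11 (16 of 26 and 16 of 18), Ncam1 (15 of 21 and 14 of 18) and Flrt2 (11 of 15 and 11 of 14) led them. Of their cKO peaks 72.2% (66.2 to 77.7%) were shared, an interval below the 83.2% of all deserts, with distance and strength not matched. Their control share was 66.5% (60.6 to 72.1%).

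Part of the desert peaks lay in lncRNA genes. A summit lay inside such a gene for 24.7% of control and 23.7% of cKO desert peaks, and in a miRNA gene for 0. Of cKO peaks inside lncRNA genes 87.2% were shared against 81.9% outside, a difference of 3.58 points (1.48 to 5.68) within strength classes; for control peaks it was -0.234 points (-2.72 to 2.25). RefSeq gave 2068 start windows of 1748 lncRNA genes in deserts. A window was taken as covered by, or under, a peak that overlapped it by at least 1 bp, so the start itself need not lie in the peak. A control peak covered 11.5% of them and a cKO peak 9.67%, against 32.0 and 29.5% of 9505 windows outside deserts. Both lists covered 183, the control list alone 55 and the cKO list alone 17.

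Covered start windows in deserts had more G+C than uncovered ones. Their median was 50.0% under a control peak against 44.3% under no peak, and the median number of CpG was 5 against 2; outside deserts the covered windows had 57.0% and 11. Short motifs were searched on both strands, and a window with several was counted for each. The TEAD motif GGAATG was in 24.4% of the desert windows under a control peak, 15.8% of those under no peak and 14.6% of all 32585 start windows of protein-coding and lncRNA genes. The E-box CAGCTG gave 24.8%, 14.3% and 16.4%, and the AP-1 motif TGANTCA 5.46%, 11% and 7.85%. Forkhead letters (TGTTTAC) were in 5.88%, 4.41% and 3.67%. The longer CTCF, HNF1 and HNF4 motifs were in at most 2 of the 238 windows under a control peak. A match of letters is no binding site, and G+C content differs between these windows.

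The cell identity of both lists was read from peaks at marker genes. A peak within 1000 bp of an end was present in both lists at 13 of 15 nephron markers, lacking at Hnf4a and Cdh6, at 6 of 6 stromal, 5 of 5 endothelial and 5 of 5 ureteric markers, and at 2 of 3 neural markers. Of 4 immune markers the control list had 2 and the cKO list 1. Open gene ends are common to many cell types, so these counts name no cell type, and the part of other cells in the desert counts was not tested. Smarca4 had 3 peaks in the control list, 2 of them shared, and 2 in the cKO list. Peaks at Smarca4 do not report its deletion. Wnt4 had 5 control peaks, 4 of them shared, and 4 cKO peaks.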

How the data were processed

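ATAC-seq was measured in 1 control and 1 Brg1 cKO library. Per the submitters' processing notes, which give no roles, the authors used Trim Galore, SAMtools, the peak caller Genrich and the build mm10. The sources used here name no aligner, setting, version or read shift. The deposited lists, 1 per library, hold 77529 control and 61210 cKO peaks. The deposited score is 1000 times the signal over the width, capped at 1000, and was not used. The deposited signal is the area under the caller's curve (at least 200) and served only for classes in an alternative. The authors' -log10 p and -log10 q, with a lowest -log10 q of 1.42 and 1.35, served to rank peaks within a list. No read counts come with these lists, so the depth is unknown.

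Genes came from RefSeq on GRCm38.p6, the assembly of mm10: 49554 genes on chromosomes 1 to 19 and X, 21631 of them protein-coding. A desert is the stretch between neighbouring protein-coding genes more than 100000 bp from both, or a chromosome end. Coordinates are 1-based. Shares have exact Clopper-Pearson 95% intervals. Differences within 10 classes of -log10 p were weighted by desert peaks, with normal-approximation intervals. The computation (Python 3.11.15, pandas 2.3.3, numpy 2.4.6, scipy 1.17.1, matplotlib 3.10.9) was tested on simulated data. No mm10 genome was used here, so motifs were searched only in RefSeq start windows.

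Members, lists and tests were chosen with earlier results of these data known. Named were the genes on both sides of the 12 deserts with most control and the 12 with most cKO peaks, and of the 4 with most unshared peaks of each list; the nearest genes of the 4 most significant and 4 most significant unshared desert peaks of each list; up to 3 genes of each of the 6 gene lists; and Wnt4 and Smarca4. Exceptions are marked, and some genes are not reported here. Alternatives varied the overlap, list length, thresholds, distance, annotation and classes.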

Additional observations from a re-analysis of the deposited data

How the results depend on the processing

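No paired analysis was possible because each genotype has 1 library, and no replicate could be left out. The cKO difference within classes kept its direction, with an interval below 0, in all 18 other settings (-16.0 to -6.05 points; -12.2 at equal list length, reached by dropping weak control peaks). The control difference kept its direction and an interval above 0 in 14 of 17. It was -0.380 points among the more significant 50% of each list, 3.88 (-0.345 to 8.10) beyond 500 kb, and 0.797 for lists of equal length with classes by area; the cause was not tested. The share of control desert peaks that were shared was 65.7% with 50% overlap of both peaks, 79.0% at equal list length, 66.5% at a -log10 q of at least 2, 60.5% among the more significant 50%, 65.6% beyond 500 kb and 66.6% when every annotated gene counted. The cKO share was 78.6% with 50% overlap, 65.9% at equal length, 80.5% among the more significant 50%, 85.8%, 80.0% and 75.7% beyond 50, 200 and 500 kb, and 74.6% with every gene. At equal length the order of the lists' shares turns round, which follows from the counts of desert peaks, 3878 control against 4677 cKO. Beyond 50, 200 and 500 kb, and with every gene, there were 9544, 2603, 436 and 581 control and 7721, 2226, 378 and 515 cKO desert peaks. Ranking by peaks per Mb kept 1 of the 12 deserts, and edges without provisional genes kept 11. Added after the data were seen were these edges, the equal lists with classes by area, classes by p and width together, a comparison with other peaks inside genes or over 10 kb from them, and the run without Olfr1324 - Stk26. Unknown depth limits every statement on weak peaks.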

Other observations

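Ranked by control peaks per Mb instead of by number, deserts of at least 100000 bp gave other genes. After that of Foxl1 came the desert between Haao and Zfp36l2, which encodes an RNA-binding protein (20 control peaks, 148 per Mb), that between Kif26a, a kinesin family gene, and A530016L24Rik (14 and 130), and that between Map3k1, a kinase gene, and Ankrd55 (30 and 111). On the other side of the forkhead genes Foxf1 and Foxl1 on chromosome 8, the desert between Irf8 and Foxf1 held 14 control peaks at 110 per Mb. Those of Gas1, a coreceptor gene of Hedgehog signalling, of Bmper, a modulator of BMP signalling, and of the chemokine receptor gene Ackr3 had 99.2, 89.0 and 96.1 per Mb. These genes were named by this ranking after their values were seen.

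Of the 377 deserts with at least 5 control peaks, 23 had all of them shared and 54 fewer than 50%, with a median of 70.0% (quartiles 57.1 and 81.8). Once provisional genes were passed over, the desert between Nr2f2 and Mctp2 ranked first with 63 control and 62 cKO peaks, ahead of Cd83 and Jarid2, and that between Npvf and Nfe2l3 held 43 and 41.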
